A study of Mus musculus with 18 samples.

Results

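The comparison set PyMT-BO1 cells carrying a functional integrin β3 against the same knockout cells carrying a signalling-deficient integrin β3, both kept in DMSO without drug. Its members are set by construct and treatment label, with no measured value in the rule: 3 hβ3 libraries and 3 Δβ3 libraries, 6 of the 18 libraries of the study. It asks which transcripts differ between cells whose integrin β3 can signal and cells whose integrin β3 cannot.

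PyMT-BO1 is a mouse breast cancer line described as luminal B-like, on the C57BL/6 background, and in all 18 cultures integrin β3 had been knocked out. Retrovirus then returned a functional human integrin β3 (hβ3), a signalling-deficient mutant integrin β3 (Δβ3, species not given in the sources used here) or the empty vector (pMx). Cells grew in 6-well plates in DMEM, in 3 cultures per group, and received DMSO or 10 nM docetaxel, a microtubule-stabilising drug, for 24 h. RNA depleted of ribosomal RNA was primed with random hexamers and read as single 50-base reads. Each construct is represented by 1 line, so a difference between hβ3 and Δβ3 holds everything that separates these lines. The p-values refer to the spread among cultures within a group, not among lines. In the main fit this spread was estimated over all 18 libraries, those of docetaxel and empty vector included.

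Integrins are receptors made of an α and a β chain that bind extracellular matrix outside the cell and, through the tail of the β chain, adaptors and kinases inside it. Integrin β3 pairs with αv in many tumour cells and with αIIb in platelets, and αvβ3 binds ligands such as vitronectin, fibronectin, osteopontin and thrombospondins. Signals from its tail reach Src-family and focal adhesion kinases, the actin cytoskeleton, MAP kinases and the YAP and TEAD transcriptional system, and in breast cancer αvβ3 is studied in bone metastasis and drug response.

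Total counts per library were 16299167 to 18961392 in hβ3 and 10571989 to 15656884 in Δβ3. The ribosomal transcript Rn45s took 27.5%, 10.9% and 33.0% of the counts of hβ3 cultures 1 to 3 and 41.5%, 9.59% and 10.0% of those of Δβ3. Δβ3 culture 1 also stood apart by RNA of heart muscle: the 31 heart muscle markers summed to 7256 CPM there (counts-per-million, with library sizes scaled by TMM factors), 916 and 968 CPM in Δβ3 cultures 2 and 3, and 1584, 1722 and 1315 CPM in hβ3. The list includes Ankrd1, also a YAP target, at 798, 832 and 786 CPM in hβ3 against 246, 111 and 109 CPM in Δβ3. Higher sums in hβ3 than in Δβ3 cultures 2 and 3 therefore do not show more heart muscle RNA. Myl7, Tnnt2, Nppb, Mb and Casq2 were at 0 in all 6 libraries. In Δβ3 culture 1, markers of fibroblasts summed to 221 CPM (36.7 and 44.4 in cultures 2 and 3, 16.3 to 26.2 in hβ3). Those of endothelium summed to 174 CPM (59.1 and 55.0, 21.8 to 26.2 in hβ3) and those of leukocytes to 107.9 CPM (50.1 and 40.9, 34.8 to 45.9 in hβ3). Skeletal muscle markers reached 279 CPM (32.4 and 32.0, 13.6 to 26.1 in hβ3). The part of this RNA in each result was not tested beyond repeating the fit without this library (17 libraries). A further fit also left out Δβ3 docetaxel culture 2 (16 libraries), where these markers summed to 59390 CPM against 645 and 808 CPM in Δβ3 docetaxel cultures 1 and 3. Both libraries enter the 18-library fit, which is the one reported unless another is named.

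The line was checked against its label. Among 21 luminal epithelial markers, whose sum was 1983 to 2079 CPM in hβ3 and 3051 to 3418 CPM in Δβ3, nearly all counts came from keratin 8 and keratin 18. Krt8 was at 1134, 1117 and 1089 CPM in hβ3 against 1693, 1907 and 1785 CPM in Δβ3 (log2 -0.69 ± 0.26, adjusted p = 0.0945), which did not pass with 18 libraries, although the groups did not overlap. Pgr, Gata3, Elf5, Kit, Ehf and Elf3 had 0 counts in all 6 libraries. Of 13 basal markers, summing to 6.93 to 7.75 CPM in hβ3 and 12.6 to 31.4 CPM in Δβ3, Krt14, Krt6a, Krt6b, Trp63 and Cdh3 were at 0. As for calls between hβ3 and Δβ3 among tested markers, edgeR called 0 of 5 luminal, 1 of 4 basal (Krt15), 1 of 11 fibroblast (Col6a3), 1 of 6 endothelial, 0 of 7 leukocyte, 0 of 23 heart, 1 of 6 skeletal (Myh1) and 0 of 2 erythroid genes. DESeq2 called 2 luminal markers lower, with 1 higher and 2 lower at an unadjusted p under 0.05 in edgeR, and no leukocyte, heart or erythroid marker. Among these, 1 heart marker had an unadjusted p under 0.05 in edgeR. With 16 libraries edgeR called 2 of 5 luminal markers lower and 0 higher. The endothelial call was the VEGF receptor Flt1, at 8.52, 9.36 and 10.004 CPM in hβ3 against 37.7, 46.02 and 43.3 CPM in Δβ3 (log2 -2.19 ± 0.21, adjusted p = 2.51e-06), with Δβ3 cultures 2 and 3 above culture 1.

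Counts of Itgb3 were at 123, 72.2 and 131 CPM in hβ3, 66.6, 113 and 110.3 CPM in Δβ3 and 1.298, 1.27 and 0.322 CPM in pMx. Both rescued lines lay far above the empty vector. The hβ3 construct is human while reads were counted on the mouse genome, so these counts do not compare the amounts of the constructs. A low or zero count does not show that a gene was silent, because reads shared by transcript models may be missing from the table: Itgb5 had 0 counts in every library, and the housekeeping gene Gapdh was at 3.46, 5.95 and 2.63 CPM in hβ3.

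A gene is called here when its Benjamini-Hochberg adjusted p in edgeR's quasi-likelihood test is under 0.05 over all tested genes. Of 12145 tested genes, 1594 (13.1%) were called, 761 higher in hβ3 (6.27%) and 833 lower (6.86%). At least 2-fold, 299 were higher (2.46%) and 538 lower (4.43%). The median log2 difference of all tested genes was -0.0018. Without Δβ3 culture 1 the fit called 1314 of 12587 genes (10.4%), 640 higher (5.08%) and 674 lower (5.35%), and 1119 of the 1594 genes were among them, each with the same sign. With 16 libraries it called 2880 of 12356 genes (23.3%), 1373 higher (11.1%) and 1507 lower (12.2%), and 1524 of the 1594 were among them with the same sign. DESeq2 on 18 libraries called 2069 genes (17%), 911 higher (7.5%) and 1158 lower (9.53%). The biological coefficient of variation between cultures was 36.1% with 18 libraries, 33.9% with 17 and 13.2% with 16. Leaving out single libraries gave from 962 calls, without hβ3 culture 3, to 2857, without Δβ3 docetaxel culture 2. Calls described below as lost without Δβ3 culture 1 were present with 16 libraries, except those of Tln2 and Twist1. In values below, the 3 numbers of a line are its DMSO cultures 1, 2 and 3 in CPM, log2 is hβ3 over Δβ3 with its standard error, and levels of different genes are not compared. Fewer cells of a kind and less RNA per cell cannot be told apart in such cultures.

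Of 1232 genes that GENCODE lists as protein coding under the symbol in the table, that had a mean of at least 2 CPM, that were called with and without the muscle-rich libraries and whose 6 values did not overlap between the lines, the 14 with the largest rise and the 14 with the largest fall are described first. All 28 were also called without Δβ3 culture 1. Because the rule required calls and no overlap, their size is a description.

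The rises included secreted growth factors. Wnt7a (chr6:91363981-91411363, minus strand; positions are whole genes in GENCODE M21 on mm10), a secreted WNT ligand, was at 137, 122 and 131 CPM in hβ3 against 1.68, 0.155 and 0.433 CPM in Δβ3 (log2 7.48 ± 1.23, adjusted p = 0.00122). The hβ3 cultures lay within a narrow band, while Δβ3 culture 1 was above cultures 2 and 3. Without Δβ3 culture 1 the Wnt7a difference was log2 8.76 (adjusted p = 0.00281). Tgfa (chr6:86195223-86275719, plus strand), a membrane-anchored ligand of the EGF receptor, was at 33.5, 31.7 and 34.3 CPM in hβ3 against 1.38, 1.63 and 1.56 CPM in Δβ3 (log2 4.43 ± 0.51, adjusted p = 1.78e-05). S100a7a (chr3:90654017-90658669, plus strand), a calcium-binding protein of the S100 family, was at 56.9, 57.2 and 54.2 CPM in hβ3 against 0.789, 1.16 and 0.865 CPM in Δβ3 (log2 5.88 ± 0.40, adjusted p = 2.74e-08). For both genes the groups were far apart and each line's cultures lay close together.

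Several of the other rises were near the limit of detection in Δβ3. Msln, which encodes the surface glycoprotein mesothelin, had 291 counts in the 3 hβ3 libraries together and 2 in the 3 Δβ3 libraries, a ratio of 112.7 after scaling with a 95% counting interval of 30.9 to 934.7. Slc25a48, a member of the mitochondrial carrier family, had 588 against 5 counts (ratio 91.1, 38.8 to 281.5), and Ptprq, a receptor-type phosphatase known from the inner ear, 276 against 6 (ratio 35.6, 16.2 to 97.9). These intervals cover counting error alone. With more counts in Δβ3, Siglecg, a sialic-acid-binding lectin known from B cells, was at 77.7, 86.8 and 75.8 CPM in hβ3 against 5.92, 6.67 and 7.53 CPM in Δβ3 (log2 3.58 ± 0.41, adjusted p = 1.91e-05), and Ddah1, which breaks down an inhibitor of nitric oxide synthase, was at 53.2, 61.4 and 61.1 CPM in hβ3 against 5.82, 5.51 and 6.66 CPM in Δβ3 (log2 3.29 ± 0.59, adjusted p = 0.00169). Pmaip1, the BH3-only protein Noxa that promotes cell death, was at 20.6, 20.8 and 21.1 CPM in hβ3 against 1.87, 2.25 and 2.16 CPM in Δβ3 (log2 3.30 ± 0.19, adjusted p = 4.47e-09). In none of these genes did the lines overlap. Vgll3, a cofactor of TEAD transcription factors, was at 4.23, 5.21 and 8.09 CPM in hβ3 against 0.296, 0.466 and 0.519 CPM in Δβ3 (log2 3.73 ± 0.52, adjusted p = 9.23e-05), and Tnfaip3, a ubiquitin-editing enzyme that restrains NF-kB, at 5.68, 4.71 and 5.46 CPM in hβ3 against 0, 0.621 and 0.952 CPM in Δβ3 (log2 3.28 ± 0.76, adjusted p = 0.00722). The remaining rises were AU018091 (log2 4.20 ± 0.75), 9930111J21Rik1 (3.09 ± 0.54) and the fibril-associated collagen Col12a1 (3.05 ± 0.85), whose call was lost without any single culture among hβ3 1, 2 and 3 or Δβ3 2 and 3, with an adjusted p of at most 0.0842.

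The sequence before the start of Wnt7a and S100a7a, 2 of the largest rises, is shown from RefSeq (GRCm38.p6), 250 bases on the strand of the gene. Promoter positions are counted from the RefSeq start, which can differ from the start of the whole gene in GENCODE: the S100a7a window lies inside the GENCODE gene, and those of Wnt7a and Cnn2 overlap its first bases. The searched motifs, on both strands, were the AP-1 site (TGANTCA), the TEAD site (CATTCC), the interferon-stimulated response element or ISRE (2 copies of GAAA with 2 bases between them) and the CArG box of serum response factor. Wnt7a (chr6:91411354-91411603, minus strand) held none of the 4.
Wnt7a: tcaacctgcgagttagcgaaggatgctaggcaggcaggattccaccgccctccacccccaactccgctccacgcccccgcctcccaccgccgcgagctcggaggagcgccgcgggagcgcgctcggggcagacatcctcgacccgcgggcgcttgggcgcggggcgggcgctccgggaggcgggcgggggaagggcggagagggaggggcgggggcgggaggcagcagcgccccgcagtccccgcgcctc
In S100a7a (chr3:90654052-90654301, plus strand) the capitals mark 3 TEAD matches, whose first bases lie at -171, -164 and -85 from the RefSeq start.
S100a7a: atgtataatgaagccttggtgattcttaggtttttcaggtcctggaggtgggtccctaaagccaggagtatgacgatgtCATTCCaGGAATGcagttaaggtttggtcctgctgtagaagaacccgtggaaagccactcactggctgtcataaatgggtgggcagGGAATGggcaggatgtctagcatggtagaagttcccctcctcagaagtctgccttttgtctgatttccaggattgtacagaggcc
A TEAD match was in 12.63% of 27025 such promoters and an AP-1 match in 6.868%. Of the 14 rises, 9 had a promoter in the table, 2 with a TEAD and 2 with an AP-1 match. Of the 14 falls, 8 had one, with 1 TEAD, 1 AP-1 and 1 ISRE promoter. A match describes the letters and shows no binding.

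The falls included secreted and matrix proteins, membrane receptors and a channel. Inhbb (chr1:119415465-119422248, minus strand), the βB subunit of activin B and inhibin B, was at 3.05, 4.46 and 4.97 CPM in hβ3 against 315, 118 and 131 CPM in Δβ3 (log2 -5.50 ± 0.33, adjusted p = 1.3e-08). Every Δβ3 culture lay far above every hβ3 culture, and Δβ3 culture 1 was the highest. Without that culture the difference was log2 -4.92 (adjusted p = 2.38e-11). Id4, an inhibitor of helix-loop-helix transcription factors, was at 12.7, 14.7 and 11.3 CPM in hβ3 against 353, 211 and 198 CPM in Δβ3 (log2 -4.30 ± 0.20, adjusted p = 3.68e-10). Kcnj12, an inward-rectifier potassium channel also expressed in heart, was at 2.15, 3.04 and 2.199 CPM in hβ3 against 159, 32.1 and 35.7 CPM in Δβ3 (log2 -4.93 ± 0.63, adjusted p = 0.00011), and at log2 -3.79 without Δβ3 culture 1. In both genes Δβ3 culture 1 was highest, as in the sums of heart muscle markers. Unlike in those sums, the other Δβ3 cultures also lay above every hβ3 culture.

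Mgp (chr6:136872435-136875823, minus strand), a matrix protein that inhibits calcification, was at 12.6, 14.7 and 9.86 CPM in hβ3 against 187, 474 and 357 CPM in Δβ3 (log2 -4.77 ± 0.36, adjusted p = 3.06e-07). Mmp3 (chr9:7445822-7455975, plus strand), the matrix-degrading protease stromelysin-1, was at 3.67, 2.48 and 2.84 CPM in hβ3 against 53.5, 88.2 and 85.4 CPM in Δβ3 (log2 -4.66 ± 0.34, adjusted p = 8.2e-08). Here Δβ3 culture 1 was the lowest of its group and still far above hβ3. St8sia1, the sialyltransferase that makes ganglioside GD3, was at 0.901, 1.24 and 1.42 CPM in hβ3 against 25.2, 26.6 and 34.6 CPM in Δβ3 (log2 -4.59 ± 0.55, adjusted p = 3.97e-05), and Krt15, a keratin of basal epithelium, at 0.416, 0.434 and 0.213 CPM in hβ3 against 7.796, 5.82 and 6.57 CPM in Δβ3 (log2 -4.20 ± 0.43, adjusted p = 3.5e-06). Cdh19, a cadherin known from Schwann cell precursors, differed by log2 -3.95 ± 0.43 and the ferritin receptor Scara5 by -4.68 ± 0.26. The gastrin-releasing peptide receptor Grpr differed by -4.60 ± 0.64, Rhov by -5.03 ± 0.50 and Nlrp10 by -4.19 ± 0.54. Dmp1 and Tnfrsf11b are described with bone genes.

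**Figure D1:**
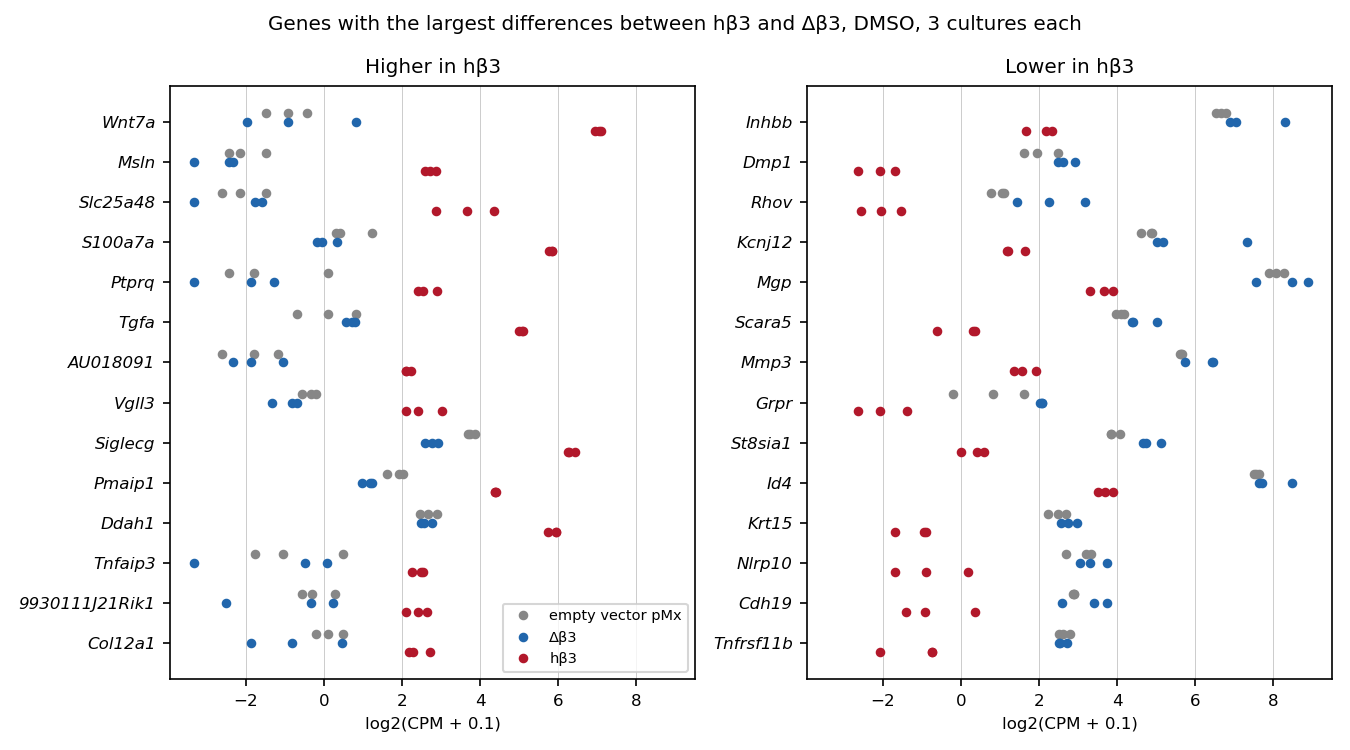
Each point is 1 DMSO culture of the empty vector line (grey), Δβ3 (blue) or hβ3 (red), as log2 of CPM plus 0.1, for the 14 largest rises (left) and the 14 largest falls (right). The red points lie apart from the blue points in each of the 28 genes, by the rule that chose them, and the grey points lie near the blue ones.

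The empty vector line was not used by the rule. In it the 14 risen genes had log2 differences of hβ3 over pMx from 2.37 to 8.16 and of Δβ3 over pMx from -1.33 to 0.69, and the 14 fallen genes -4.82 to -3.41 and -0.04 to 1.51 in the same order. The smallest adjusted p of Δβ3 against pMx among the 28 genes was 0.458 with 18 libraries. With 16 libraries Mmp3 (log2 0.80, adjusted p = 0.000177) and St8sia1 (1.02, 0.00466) were called higher in Δβ3 than in pMx. Siglecg was called lower there (-0.94, 0.00248). These contrasts share libraries with the comparison above and with each other. For example, Wnt7a was at 0.433, 0.637 and 0.258 CPM in pMx, S100a7a at 2.25, 1.15 and 1.23 CPM and Inhbb at 101, 110.4 and 92.7 CPM.

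Gene lists give the account by function, and the plot of calls by gene list shows their sizes. Each count by list stands against 6.27% higher and 6.86% lower among all tested genes. A count near these shares is no result about its list. Together 673 members of 32 lists were tested, and 153 were called, against 13.1% of all tested genes. Without Δβ3 docetaxel culture 2 the number was 260. The lists were written with earlier results of these data known, so a larger share of calls in them is no result about these functions.

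**Figure D2:**
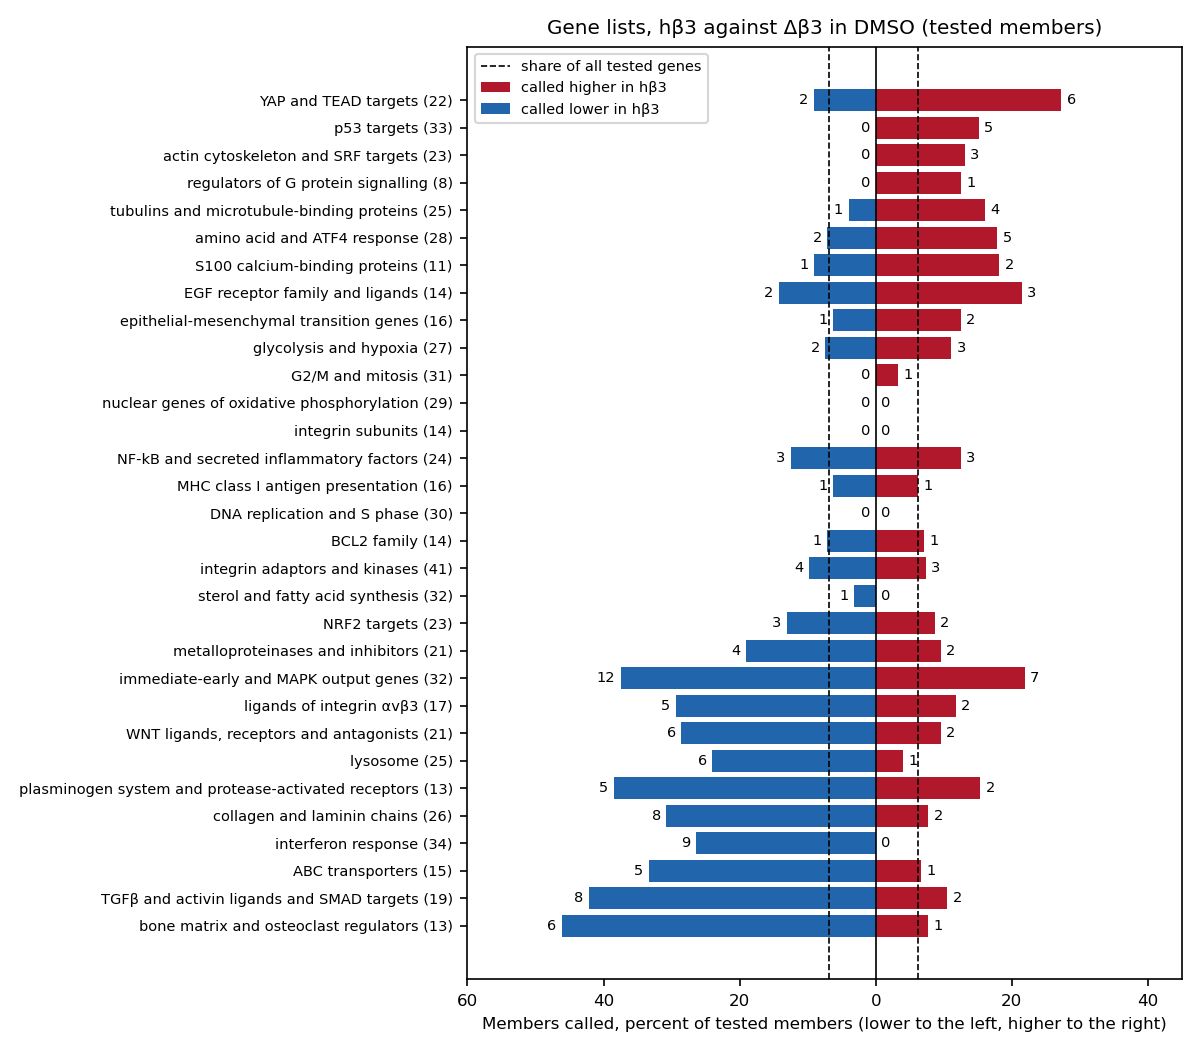
Bars give the percentage of each list's tested members that were called higher in hβ3 (red, to the right) or lower (blue, to the left), with counts beside the bars and the number tested in brackets; dashed lines mark the shares of all tested genes, 6.27% higher and 6.86% lower. The bone matrix, TGFβ, plasminogen system and immediate-early lists reach furthest to the left, and YAP and TEAD targets reach right of it.

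No integrin subunit passed the test with 18 libraries: 14 of 25 were tested, with a median log2 of 0.11, and edgeR called 0 (3 at an unadjusted p under 0.05). DESeq2 called 1 higher and 1 lower. Itgav, the αv partner of β3, was at 645, 583 and 688 CPM in hβ3 against 312, 489 and 493 CPM in Δβ3 (log2 0.56 ± 0.21, adjusted p = 0.0864). Its groups did not overlap, with Δβ3 culture 1 lowest. Itgb1, the β chain shared by many collagen and fibronectin receptors, differed by log2 0.63 ± 0.22 (adjusted p = 0.0679). With 16 libraries 5 subunits were called higher and 1 lower: Itgav (log2 0.36, adjusted p = 0.00344), Itgb1 (0.33, 0.0191), Itga2, Itga3 and Itgb7 higher and the laminin receptor chain Itga6 lower (log2 -1.22).

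Of 17 tested ligands of αvβ3, 2 were higher and 5 lower (median log2 -0.82, with 17 libraries 2 and 6, median -0.21). Thbs2, the matricellular protein thrombospondin-2, was at 364, 339 and 358 CPM in hβ3 against 2613, 3668 and 3708 CPM in Δβ3 (log2 -3.24 ± 0.35, adjusted p = 1.33e-05). Cyr61, the matricellular protein CCN1, was at 365, 365 and 395 CPM in hβ3 against 145, 119 and 112 CPM in Δβ3 (log2 1.58 ± 0.22, adjusted p = 0.0001). Thus the lowest Δβ3 culture of Thbs2 lay above the highest hβ3 culture, and the reverse held for Cyr61. Tnc, the matrix protein tenascin-C, was higher (log2 1.05 ± 0.25), and Spp1, which encodes osteopontin, was lower at 0.831, 0.93 and 0.78 CPM in hβ3 against 2.27, 2.48 and 2.595 CPM in Δβ3 (log2 -1.52 ± 0.33, adjusted p = 0.00477). Tgfb1, whose latent form is bound by αv integrins, was at 11.6, 9.18 and 15.6 CPM in hβ3 against 35.03, 29.9 and 29.2 CPM in Δβ3 (log2 -1.37 ± 0.21, adjusted p = 0.000217). The laminin α5 chain Lama5 was also lower (log2 -0.65 ± 0.18), a call lost without any single hβ3 culture or Δβ3 culture 2.

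Among 41 tested adaptors and kinases of integrin signalling, 3 were higher and 4 lower (median log2 0.28), and 5 and 3 with 17 libraries. With 18 libraries this is near the 6.27% and 6.86% of all tested genes, so the genes below are described singly. The focal adhesion protein tensin-3, Tns3, was at 153, 126 and 143 CPM in hβ3 against 54.1, 52.9 and 53.9 CPM in Δβ3 (log2 1.39 ± 0.14, adjusted p = 2.51e-06). Shc1, an adaptor that links receptors to RAS, was at 13.6, 14.3 and 16.8 CPM in hβ3 against 98.98, 37.6 and 42.2 CPM in Δβ3 (log2 -1.998 ± 0.28, adjusted p = 0.000122), and its Δβ3 culture 1 was above the other 2. Without that culture the Shc1 difference was log2 -1.43 (adjusted p = 2.25e-05). The SH2 and SH3 adaptor Nck2 was lower (log2 -1.39 ± 0.21), as was Dock1, an exchange factor for RAC (-0.74 ± 0.14). Git1, a focal adhesion scaffold, was higher by log2 0.37 ± 0.10, and Cav1, the coat protein of caveolae, by 0.66 ± 0.21 (adjusted p = 0.0487), a call lost in 20 of 31 other settings. Tln2, one of the talins that bind integrin tails, was called lower (log2 -1.26 ± 0.38) but not without Δβ3 culture 1 (log2 -0.78, adjusted p = 0.218).

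Of 23 tested actin cytoskeleton genes and targets of serum response factor, 3 were higher and 0 lower by edgeR, also with 17 libraries (median log2 -0.04). At an unadjusted p under 0.05, 2 were lower, and DESeq2 called 1 lower. Cnn2, the actin-binding protein calponin-2, was at 729, 756 and 743 CPM in hβ3 against 174, 226 and 208 CPM in Δβ3 (log2 1.88 ± 0.14, adjusted p = 8.2e-08). Actb, which encodes β-actin, was at 14698, 17128 and 14623 CPM in hβ3 against 8746, 10964 and 9675 CPM in Δβ3 (log2 0.66 ± 0.14, adjusted p = 0.00475), and Wdr1, a cofactor of actin disassembly, differed by log2 0.55 ± 0.12. All 3 genes had higher values in each hβ3 culture than in any Δβ3 culture. The Cnn2 promoter (chr10:79988350-79988599, plus strand) is shown because its gene rose most in this list, with its CArG box, first base at -56, in capitals.
Cnn2: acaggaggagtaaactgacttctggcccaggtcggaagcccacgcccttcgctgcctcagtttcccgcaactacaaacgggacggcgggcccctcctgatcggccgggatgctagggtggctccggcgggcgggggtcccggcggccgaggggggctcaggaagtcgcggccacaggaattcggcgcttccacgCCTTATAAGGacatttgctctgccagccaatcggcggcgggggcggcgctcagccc
A CArG box was in 1.399% of the 27025 promoters, and in 1 of the 2 promoters available for the 3 risen genes. Uncalled members of this list were not compared, so the box is no result about the rise.

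Of 22 tested YAP and TEAD targets, 6 were higher and 2 lower (median log2 0.67), with the same counts in 17 libraries. Besides Cyr61, the list's risen members were Foxf2, a forkhead factor, at 29.9, 33.3 and 28.7 CPM in hβ3 against 15.8, 8.38 and 7.18 CPM in Δβ3 (log2 1.55 ± 0.24, adjusted p = 0.000323), and Amotl2, an angiomotin that restrains YAP, at 2.91, 2.54 and 2.98 CPM in hβ3 against 1.28, 0.776 and 0.779 CPM in Δβ3 (log2 1.57 ± 0.33, adjusted p = 0.00386). Ajuba, a LIM protein of the same pathway (log2 1.12 ± 0.21), Crim1 (0.79 ± 0.18) and Dock5 (1.15 ± 0.18) also rose. The fallen members were Nt5e, the ectonucleotidase CD73, at 29.8, 26.8 and 26.1 CPM in hβ3 against 56.7, 134 and 142 CPM in Δβ3 (log2 -2.01 ± 0.35, adjusted p = 0.0012), and Wwtr1, which encodes the YAP paralogue TAZ (log2 -1.04 ± 0.21). Groups were separate for each of these 7 genes. Ankrd1 and Ctgf, often used as readouts of YAP, did not pass with 18 libraries. Ankrd1 was at 798, 832 and 786 CPM in hβ3 against 246, 111 and 109 CPM in Δβ3 (log2 2.37 ± 1.03, adjusted p = 0.165), and Ctgf at 40.4, 38.4 and 40.9 CPM in hβ3 against 12.7, 2.64 and 1.99 CPM in Δβ3 (2.80 ± 1.23, adjusted p = 0.171). Both stayed uncalled with 17 libraries, at log2 2.86 (adjusted p = 0.218) and 4.09 (0.126). Without Δβ3 docetaxel culture 2 alone both were called higher (adjusted p = 0.000107 and 0.0055). With 16 libraries they were also called higher, at log2 2.86 (adjusted p = 2.44e-05) and 4.08 (0.000149). Ankrd1 is also made by heart muscle. Of the 6 risen members, 5 had a promoter in the table and 4 of these a TEAD match. Among promoters of all tested genes 10.74% had one, and among those of all genes called higher 12.2%. The list was made of known TEAD targets, and its uncalled members were not compared. The matches are therefore no result about the rise.

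Immediate-early genes and outputs of MAP kinase signalling moved in both directions: of 32 tested, 7 were higher and 12 lower (median log2 -0.43). Without Δβ3 culture 1 the counts were 7 and 8, and with 16 libraries 8 and 16. Fos, Egr1 and Ier2 were lower in hβ3, while the AP-1 genes Jun (log2 -0.33, adjusted p = 0.155) and Fosb (-0.55, 0.269) did not pass with 18 libraries. With 16 libraries Jun (log2 -0.20, adjusted p = 0.042) and Fosb (-0.76, 0.00136) were called lower. Fos (chr12:85473890-85477273), a component of AP-1, was at 1.11, 0.496 and 0.497 CPM in hβ3 against 5.43, 6.21 and 8.13 CPM in Δβ3 (log2 -3.22 ± 0.42, adjusted p = 4.75e-05). Egr1, a zinc finger factor induced by growth signals, was at 17.9, 18.8 and 25.2 CPM in hβ3 against 109.6, 145 and 144 CPM in Δβ3 (log2 -2.69 ± 0.40, adjusted p = 0.000327), and Ier2, another early-response gene, at 43.5, 38.3 and 43.2 CPM in hβ3 against 134, 70.8 and 69.8 CPM in Δβ3 (log2 -1.14 ± 0.21, adjusted p = 0.00136). In each of the 3 genes every Δβ3 culture was above every hβ3 culture. In pMx these genes were at 1.13, 1.15 and 0.387 CPM (Fos), 14.3, 16.9 and 17.7 CPM (Egr1) and 37.1, 35.2 and 39.1 CPM (Ier2), and Δβ3 was the highest of the 3 lines.

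Inhibitors of the MAP kinase pathway did not all differ in the same direction. In the list, Dusp5 (log2 0.04, adjusted p = 0.905), Spry4 (-0.44, 0.0682) and Spred1 (-0.46, 0.274) did not pass with 18 libraries. With 16 libraries Spry4 (-0.48, 0.00168) and Spred1 (-0.77, 1.69e-07) were called lower and Dusp5 (0.37, 0.00134) higher. Outside the list, the phosphatase genes Dusp3 (log2 1.23), Dusp7 (0.53) and Dusp10 (1.36) were higher, named after their values were seen. Dusp2, a nuclear phosphatase of MAP kinases, was at 4.85, 4.03 and 5.96 CPM in hβ3 against 62.5, 40.1 and 30.3 CPM in Δβ3 (log2 -3.16 ± 0.24, adjusted p = 1.47e-07), with pMx between the lines at 21.99, 22.7 and 24.5 CPM. Dusp6, the phosphatase of ERK, was at 285, 301 and 279 CPM in hβ3 against 399, 501 and 497 CPM in Δβ3 (log2 -0.69 ± 0.20, adjusted p = 0.0315) and 440.3, 435 and 434 CPM in pMx, and Spry2, a Sprouty inhibitor of receptor tyrosine kinases, at 38.5, 37.9 and 42.4 CPM in hβ3 against 56.4, 73.02 and 70.1 CPM in Δβ3 (log2 -0.75 ± 0.20, adjusted p = 0.0181). The lines did not overlap in these genes, but leaving out 1 library raised the adjusted p to as much as 0.0948 for Dusp6 and 0.0626 for Spry2, without hβ3 culture 3 and hβ3 culture 1. The Dusp6 call was lost in 11 of 31 other settings, each without 1 library, among them every hβ3 culture and Δβ3 cultures 2 and 3 in DMSO. The Spry2 call was lost in 4, without hβ3 culture 1 or 2 or Δβ3 culture 2 or 3. With 16 libraries Dusp6 (log2 -0.80, adjusted p = 1.48e-09) and Spry2 (-0.87, 1.42e-07) were called lower. Etv4, an ETS factor downstream of ERK, was lower by log2 -1.23 ± 0.26 (adjusted p = 0.00366). Dusp4, Spred3, Egr3, Etv5 and Ier5 were called lower with 18 libraries and not with 17, where adjusted p was 0.0554 for Dusp4, 0.066 for Spred3, 0.078 for Egr3, 0.112 for Etv5 and 0.31 for Ier5. With 16 libraries, which also leave out Δβ3 culture 1, each was called lower. Adjusted p was then 5.02e-06, 0.00379, 0.0212, 0.0333 and 0.00791 in the same order.

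Other members of this list rose. Fosl1, which encodes the AP-1 subunit FRA-1, was at 111, 117 and 125 CPM in hβ3 against 39.5, 59.4 and 53.2 CPM in Δβ3 (log2 1.21 ± 0.21, adjusted p = 0.000886), and its relative Fosl2 was higher by log2 0.92 ± 0.15. Klf4, a Krüppel-like factor, was at 180.4, 199 and 219 CPM in hβ3 against 102, 92.9 and 87.98 CPM in Δβ3 (log2 1.08 ± 0.11, adjusted p = 4.8e-06), and Klf6 was higher by 0.61 ± 0.12. Epha2, an ephrin receptor kinase, was at 1175, 1238 and 1211 CPM in hβ3 against 822, 716 and 707 CPM in Δβ3 (log2 0.69 ± 0.13, adjusted p = 0.00118). Phlda1 was higher by log2 1.54 ± 0.36, and Epha4 by 2.196 ± 0.67, the latter not called without Δβ3 culture 1 (adjusted p = 0.0651). With 16 libraries Epha4 was called higher, at log2 2.59 (adjusted p = 6.62e-13). The hβ3 cultures of Fosl1, Klf4 and Epha2 were above all Δβ3 and pMx cultures.

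**Figure D3:**
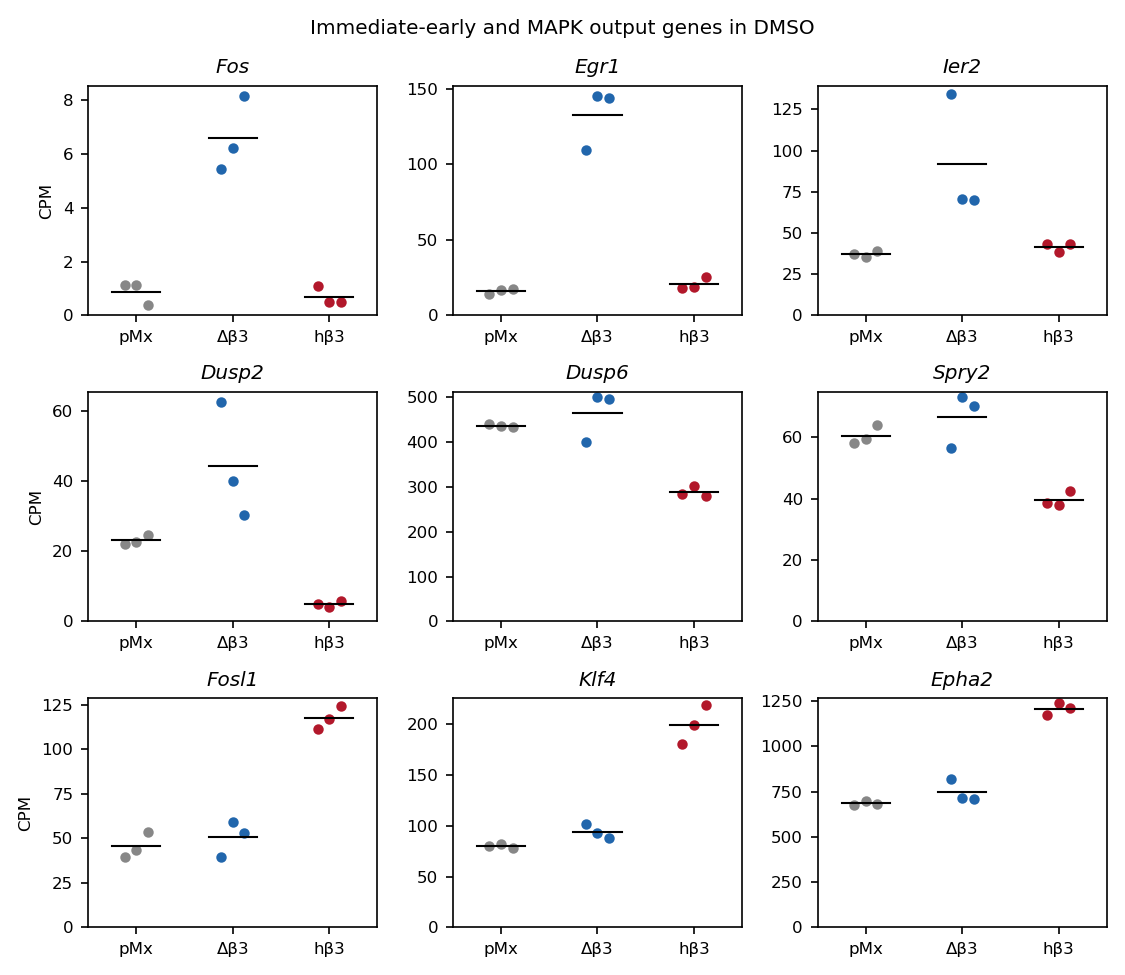
CPM in each DMSO culture of the empty vector line (grey), Δβ3 (blue) and hβ3 (red), with the group mean as a line, for 9 immediate-early and MAP kinase output genes. Fos, Egr1 and Ier2 are highest in Δβ3, Dusp2, Dusp6 and Spry2 are lowest in hβ3, and Fosl1, Klf4 and Epha2 are highest in hβ3.

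The EGF receptor family and its ligands had 3 higher and 2 lower members of 14 tested (median log2 -0.14), and 3 and 1 with 17 libraries. Besides Tgfa, the EGF receptor ligand Hbegf was at 211, 189 and 205 CPM in hβ3 against 74.8, 100.2 and 88.4 CPM in Δβ3 (log2 1.20 ± 0.14, adjusted p = 2.04e-05). Nrg1, a ligand of ERBB3 and ERBB4, was at 1.39, 0.93 and 0.851 CPM in hβ3 against 0, 0 and 0.173 CPM in Δβ3 and was called higher. Betacellulin, Btc, was at 0.346, 0.496 and 0.497 CPM in hβ3 against 3.95, 2.33 and 5.19 CPM in Δβ3 (log2 -3.07 ± 0.63, adjusted p = 0.00296). Ligands of the same receptor therefore differed in opposite directions between the lines. Amphiregulin, Areg, was at 189, 199 and 186 CPM in hβ3 against 455, 330.5 and 300.1 CPM in Δβ3 (log2 -0.92 ± 0.28, adjusted p = 0.0369), with adjusted p = 0.153 without Δβ3 culture 1. With 16 libraries Areg was called lower, at log2 -0.73 (adjusted p = 0.000289).

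TGFβ, activin and BMP ligands with SMAD targets had 2 higher and 8 lower members of 19 tested (median log2 -0.60), and 3 and 9 with 17 libraries. The 4 called ligands were lower. Beside Inhbb and Tgfb1, Bmp2, a bone morphogenetic protein, was at 8.17, 9.36 and 11.3 CPM in hβ3 against 149.9, 105 and 107 CPM in Δβ3 (log2 -3.65 ± 0.31, adjusted p = 6.44e-07), and Tgfb3 at 29.1, 39.1 and 32.6 CPM in hβ3 against 66.1, 78.6 and 74.4 CPM in Δβ3 (log2 -1.12 ± 0.16, adjusted p = 0.000166). Ltbp1, which stores latent TGFβ in the matrix, was lower by log2 -1.51 ± 0.26, and the type I activin receptor Acvr1b by -0.60 ± 0.15. Bambi, a pseudoreceptor that dampens the pathway, was at 4.16, 3.22 and 2.27 CPM in hβ3 against 29.3, 20.6 and 18.8 CPM in Δβ3 (log2 -2.83 ± 0.26, adjusted p = 1.24e-06), and Id1, a target of BMP signals, was lower by log2 -1.16 ± 0.25. These ligand and target genes had no overlap between lines. Among the SMAD targets, the feedback inhibitor Pmepa1 was higher, at log2 0.90 ± 0.12, against the direction of the ligands.

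WNT ligands, receptors and antagonists had 2 higher and 6 lower members of 21 tested (median log2 -0.34), and 2 and 5 with 17 libraries. Against the rise of Wnt7a, the frizzled receptors Fzd1 (log2 -1.16 ± 0.17) and Fzd7 (-0.83 ± 0.17) were lower, as was the R-spondin receptor Lgr6, at 14.4, 14.1 and 13.3 CPM in hβ3 against 58.02, 27.9 and 31.1 CPM in Δβ3 (log2 -1.48 ± 0.24, adjusted p = 0.000442). Notum, a secreted enzyme that inactivates WNT proteins, was at 1.25, 1.36 and 0.639 CPM in hβ3 against 12.2, 4.19 and 3.37 CPM in Δβ3 (log2 -2.59 ± 0.47, adjusted p = 0.00115), and the antagonist Apcdd1 at 153, 173 and 169 CPM in hβ3 against 256, 229 and 214 CPM in Δβ3 (log2 -0.50 ± 0.10, adjusted p = 0.0026). Znrf3, a ubiquitin ligase that removes frizzled receptors, was higher by log2 0.99 ± 0.26. Wnt10a was called lower (log2 -1.17 ± 0.37), with adjusted p = 0.193 without Δβ3 culture 1. In the Apcdd1 and Lgr6 values the lines did not overlap.

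Of 24 tested NF-kB targets and secreted inflammatory factors, 3 were higher and 3 lower (median log2 0.39), and 4 and 5 with 17 libraries. Ptgs2, the inducible prostaglandin synthase COX-2, was at 1311, 1174 and 1343 CPM in hβ3 against 145, 267 and 284 CPM in Δβ3 (log2 2.46 ± 0.20, adjusted p = 2.3e-07). Csf1, the growth factor of macrophages and osteoclast precursors, was at 12.9, 12.8 and 12.1 CPM in hβ3 against 3.06, 4.11 and 3.37 CPM in Δβ3 (log2 1.84 ± 0.27, adjusted p = 0.00017). Tnfaip3 was the other risen member. Cx3cl1, the chemokine fractalkine, was at 5.54, 9.2997 and 7.095 CPM in hβ3 against 22.8, 32.9 and 33.2 CPM in Δβ3 (log2 -2.02 ± 0.20, adjusted p = 2.43e-06), and Il1rn, the antagonist of the interleukin 1 receptor, at 0.139, 0.372 and 0.071 CPM in hβ3 against 1.78, 3.26 and 2.16 CPM in Δβ3 (log2 -3.54 ± 0.55, adjusted p = 0.000266). The epithelial cytokine Tslp was lower too, by log2 -2.47 ± 0.51, with Δβ3 culture 1 lowest of its group.

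The plasminogen system and protease-activated receptors had 2 higher and 5 lower members of 13 tested (median log2 0.05), and 2 and 4 with 17 libraries. Plat, the tissue plasminogen activator, was at 4.92, 4.34 and 4.47 CPM in hβ3 against 18.6, 23.98 and 23.01 CPM in Δβ3 (log2 -2.25 ± 0.15, adjusted p = 2.74e-08). Serpine2, an inhibitor of thrombin and plasminogen activators, was at 1.801, 0.744 and 1.49 CPM in hβ3 against 16.1, 15.9 and 14.4 CPM in Δβ3 (log2 -3.52 ± 0.29, adjusted p = 3.8e-07), and Serpinf1, which encodes the pigment epithelium-derived factor, at 0.623, 0.62 and 0.355 CPM in hβ3 against 8.88, 7.605 and 5.62 CPM in Δβ3 (log2 -3.76 ± 0.46, adjusted p = 2.39e-05). Thus an activator and these serpins were lower together. The protease-activated receptor genes F2rl1 and F2rl3 differed in opposite directions, at log2 0.58 ± 0.13 and -3.16 ± 0.80. Tfpi, the inhibitor of tissue factor, was called lower with 18 libraries (adjusted p = 0.0431) and was at 0.0544 with 17.

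Matrix metalloproteinases, their relatives and inhibitors had 2 higher and 4 lower members of 21 tested (median log2 -0.11), with the same counts in 17 libraries. Beside Mmp3, stromelysin-2 or Mmp10 was lower, at 0.762, 1.05 and 0.851 CPM in hβ3 against 2.86, 4.89 and 3.11 CPM in Δβ3 (log2 -2.02 ± 0.40, adjusted p = 0.00252), as was the aggrecanase Adamts4, at 3.81, 2.54 and 3.83 CPM in hβ3 against 22.7, 14.6 and 16.9 CPM in Δβ3 (log2 -2.41 ± 0.26, adjusted p = 6.62e-06). Timp3, an inhibitor of metalloproteinases held in the matrix, was lower by log2 -1.98 ± 0.45. The membrane proteases Adam19 and Adam12 were called higher at low levels: Adam12 was at 3.39, 1.74 and 2.84 CPM in hβ3 against 0.493, 0 and 0.0865 CPM in Δβ3 (adjusted p = 0.0432) and Adam19 at 1.52, 0.682 and 1.56 CPM in hβ3 against 0.296, 0.233 and 0.0865 CPM in Δβ3 (adjusted p = 0.00795). The Adam12 call was lost in 16 of 31 other settings. The Mmp3 promoter (chr9:7445572-7445821, plus strand) is shown because Mmp3 fell most in this list and, as background, is a known AP-1 target. Its 1 AP-1 match starts at -46.
Mmp3: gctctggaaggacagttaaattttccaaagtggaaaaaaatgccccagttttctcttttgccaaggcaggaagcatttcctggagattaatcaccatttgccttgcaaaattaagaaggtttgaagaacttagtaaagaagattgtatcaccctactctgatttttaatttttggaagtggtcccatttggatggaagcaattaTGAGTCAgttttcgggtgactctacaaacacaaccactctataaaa

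Collagen and laminin chains had 2 higher and 8 lower members of 26 tested (median log2 -1.23). Without Δβ3 culture 1 the counts were 3 and 8 and the median -0.31. The chains Col6a1, Col6a2 and Col6a3 of collagen VI, a microfibrillar collagen, were lower. Col6a1 was at 18.1, 23.6 and 16.7 CPM in hβ3 against 308, 146 and 154 CPM in Δβ3 (log2 -3.38 ± 0.26, adjusted p = 1.82e-07), Col6a2 at 0.554, 0.496 and 0.142 CPM in hβ3 against 7.401, 1.78 and 3.72 CPM in Δβ3 (log2 -3.39 ± 0.70, adjusted p = 0.00388), and Col6a3, which is also a fibroblast marker, at 0.416, 0.124 and 0.142 CPM in hβ3 against 1.68, 1.78 and 2.85 CPM in Δβ3 (log2 -3.17 ± 0.69, adjusted p = 0.00431). Their Δβ3 cultures 2 and 3, with little heart muscle RNA, were also above every hβ3 culture. Among basement membrane collagens, Col4a6 was at 42.3, 40.9 and 40.9 CPM in hβ3 against 179, 132 and 152 CPM in Δβ3 (log2 -1.90 ± 0.22, adjusted p = 1.58e-05), Col18a1 was lower by log2 -2.24 ± 0.33 and Col4a5 by -1.20 ± 0.35. Col5a1, a fibril-forming chain, was lower by -1.38 ± 0.31 with 18 libraries and -0.68 with 17.

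Bone matrix genes and regulators of osteoclasts had the largest share of falls in the plot of calls by list: of 13 tested, 1 was higher and 6 lower (median log2 -1.52), and 1 and 7 with 17 libraries. Dmp1, an acidic matrix protein of bone and dentin, was at 0.139, 0.062 and 0.213 CPM in hβ3 against 5.53, 5.97 and 7.53 CPM in Δβ3 (log2 -5.46 ± 0.60, adjusted p = 8.6e-06). Tnfrsf11b, which encodes osteoprotegerin, the decoy receptor that blocks osteoclast formation, was at 0.139, 0.496 and 0.497 CPM in hβ3 against 6.51, 5.74 and 5.62 CPM in Δβ3 (log2 -3.94 ± 0.56, adjusted p = 0.000139). Jag1, a Notch ligand, was at 79.9, 74.03 and 83.7 CPM in hβ3 against 241, 228 and 233 CPM in Δβ3 (log2 -1.56 ± 0.20, adjusted p = 5.2e-05). With Mgp, Bmp2 and Spp1 these were the 6 fallen members, and Csf1 was the risen one. No value of the 7 genes overlapped between the lines.

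Of 16 tested genes of epithelial-mesenchymal transition, 2 were higher and 1 lower (median log2 -0.17). Cdh2, which encodes N-cadherin, was higher by log2 1.39 ± 0.22 (adjusted p = 0.000346). Snai2, the transcription factor SLUG, was at 12.7, 12.6 and 15.96 CPM in hβ3 against 2.47, 4.04 and 3.11 CPM in Δβ3 (log2 2.09 ± 0.33, adjusted p = 0.000295). Twist1 was called lower (log2 -0.69 ± 0.21), a call lost without Δβ3 culture 1 (log2 -0.32, adjusted p = 0.198). The mesenchymal filament gene Vim was at 10874, 11487 and 10141 CPM in hβ3 against 11378, 11178 and 10192 CPM in Δβ3 (log2 -0.01 ± 0.20, adjusted p = 0.981), with overlapping groups. Among 11 tested S100 genes, S100a7a and S100a11, at 275, 274 and 321 CPM in hβ3 against 35.1, 97.8 and 76.2 CPM in Δβ3 (log2 2.06 ± 0.30, adjusted p = 0.000192), were higher and S100b was lower (log2 -1.45 ± 0.31).

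No interferon response gene was called higher by edgeR or DESeq2 or had an unadjusted p under 0.05 in that direction, and 9 of 34 tested were lower (median log2 -0.75). DESeq2 called 13 lower, and edgeR 9 with 17 libraries and 16 of 35 with 16. Usp18, which restrains signalling of the interferon receptor, was at 4.09, 3.16 and 2.06 CPM in hβ3 against 18.4, 14.9 and 14.8 CPM in Δβ3 (log2 -2.36 ± 0.30, adjusted p = 4.76e-05). Isg15, a ubiquitin-like protein, was at 5.26, 3.66 and 4.47 CPM in hβ3 against 17.9, 10.01 and 11.3 CPM in Δβ3 (log2 -1.55 ± 0.32, adjusted p = 0.00375), and Ifit3, a member of the IFIT antiviral family, at 6.86, 8.62 and 6.102 CPM in hβ3 against 14.7, 12.2 and 15.4 CPM in Δβ3 (log2 -0.97 ± 0.26, adjusted p = 0.0212). Each hβ3 culture was below each Δβ3 culture in these 3 genes. Cmpk2 (log2 -1.91 ± 0.25), Ifi44 (-2.84 ± 0.42), Rtp4 (-1.52 ± 0.30), Mx2 (-2.49 ± 0.55), Gbp2 (-0.71 ± 0.20) and Psmb9 (-3.42 ± 0.75) were also lower. Psmb9, a subunit of the immunoproteasome, reached 4.54, 1.01 and 0.606 CPM in Δβ3, with culture 1 highest. The Ifit3 call was lost without hβ3 culture 1 or 3 or Δβ3 culture 3, with an adjusted p of at most 0.0952, and reads of Ifit3 may be shared with close copies in its family. In pMx, Usp18 was at 13.2, 9.74 and 11.5 CPM, Isg15 at 7.098, 7.52 and 8.898 CPM and Ifit3 at 11.4, 10.7 and 11.9 CPM.

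The promoters of Isg15 (chr4:156200819-156201068, minus strand) and Ifit3 (chr19:34583279-34583528, plus strand) are shown because both fell and, as background, interferon acts on such genes through the ISRE. Capitals mark the ISRE matches: 3 overlapping ones in Isg15, with first bases at -78, -72 and -66, and 2 in Ifit3, at -156 and -122.
Isg15: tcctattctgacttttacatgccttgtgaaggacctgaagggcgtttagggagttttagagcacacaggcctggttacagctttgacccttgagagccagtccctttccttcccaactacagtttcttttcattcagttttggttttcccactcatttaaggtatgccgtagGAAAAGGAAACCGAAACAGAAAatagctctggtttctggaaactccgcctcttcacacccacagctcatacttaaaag
Ifit3: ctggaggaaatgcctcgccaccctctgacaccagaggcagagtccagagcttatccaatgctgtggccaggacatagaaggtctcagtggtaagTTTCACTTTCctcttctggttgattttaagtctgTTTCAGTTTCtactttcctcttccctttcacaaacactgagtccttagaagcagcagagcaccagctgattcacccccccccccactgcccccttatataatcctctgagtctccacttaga
Of the 9 fallen interferon genes, 6 had a promoter in the table and 3 of these an ISRE match, against 3.038% of all 27025 promoters and 2.524% of those of tested genes. Among promoters of all genes called lower the share was 3.14%. Uncalled interferon genes were not compared, so these matches are no result about the fall. Presentation on MHC class I had 1 higher and 1 lower member of 16 tested. Nlrc5, the transactivator of MHC class I genes, was at 9.56, 10.2 and 9.58 CPM in hβ3 against 4.64, 5.35 and 4.76 CPM in Δβ3 (log2 0.99 ± 0.17, adjusted p = 0.000842), and Psmb9 was the lower member.

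Of 33 tested p53 targets, 5 were higher and 0 lower by edgeR, also with 17 libraries (median log2 0.19). At an unadjusted p under 0.05, 2 were lower, and DESeq2 called 1 lower. Plk2 (chr13:110395046-110400844, plus strand), a polo-like kinase induced by stress, was at 192, 202 and 191 CPM in hβ3 against 22.99, 28.01 and 24.4 CPM in Δβ3 (log2 2.95 ± 0.11, adjusted p = 4.5e-11), and it had the smallest adjusted p among the list members. Its hβ3 and Δβ3 cultures each varied little. Zmat3, an RNA-binding p53 target, was higher by log2 1.11 ± 0.22, and Pmaip1 was described above. Perp and Sesn2 were called at adjusted p of 0.0487 and 0.0344, and Sesn2 was not called without Δβ3 culture 1 (0.0992). The Perp call was lost in 18 of 31 other settings, among them each hβ3 culture left out, and the Sesn2 call in 10. In the BCL2 family, Pmaip1 rose and Bok, a pro-apoptotic relative of BAX, fell, at 144, 122 and 138 CPM in hβ3 against 568, 290.3 and 274 CPM in Δβ3 (log2 -1.48 ± 0.21, adjusted p = 0.000137), 1 and 1 of 14 tested. Rgs16, a regulator of G protein signalling, was at 43.1, 46.1 and 50.2 CPM in hβ3 against 10.1, 11.4 and 11.4 CPM in Δβ3 (log2 2.08 ± 0.21, adjusted p = 2.89e-06), the 1 called of 8 tested in its list.

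Genes of DNA replication had 0 calls by edgeR among 30 tested (median log2 -0.06), 1 higher and 3 lower at an unadjusted p under 0.05 and 3 lower by DESeq2. Genes of G2 and mitosis had 1 call among 31, the proliferation marker Mki67 (log2 0.83 ± 0.21, adjusted p = 0.0125), not called without Δβ3 culture 1 (0.0503). With 16 libraries these lists had 1 higher and 5 lower and 2 higher and 4 lower. Tubulins and microtubule-binding proteins, the targets and partners of taxanes, had 4 higher and 1 lower of 25 tested before any drug (median log2 0.10), and 3 and 1 with 17 libraries. Tubb3, the class III β-tubulin, was at 171, 175 and 165 CPM in hβ3 against 64.1, 71.8 and 61.1 CPM in Δβ3 (log2 1.38 ± 0.15, adjusted p = 7.58e-06), and Tubb2b was higher by log2 1.398 ± 0.30. Map6, a microtubule-stabilising protein, was higher by 1.72 ± 0.26, and Stmn1, the microtubule destabiliser stathmin, was at 57.01, 60.7 and 57.8 CPM in hβ3 against 156, 123 and 104 CPM in Δβ3 (log2 -1.13 ± 0.24, adjusted p = 0.00429). Map1b was called higher (log2 0.70 ± 0.18) with 18 libraries and not with 17 (adjusted p = 0.0532). Lines did not overlap for Tubb3 and Stmn1.

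ABC transporters had 1 higher and 5 lower members of 15 tested (median log2 -0.49), and 1 and 6 with 17 libraries. Abca1, which exports cholesterol, was at 17.8, 15.004 and 15.8 CPM in hβ3 against 65.3, 53.9 and 55.6 CPM in Δβ3 (log2 -1.85 ± 0.14, adjusted p = 1.4e-07). The multidrug transporter Abcg2 was at 0.831, 0.992 and 1.28 CPM in hβ3 against 2.76, 4.19 and 4.76 CPM in Δβ3 (log2 -1.91 ± 0.35, adjusted p = 0.00122), whereas Abcc1, the multidrug resistance-associated protein MRP1, was at 455, 425 and 433 CPM in hβ3 against 267, 298 and 298 CPM in Δβ3 (log2 0.61 ± 0.11, adjusted p = 0.0012). Each was separate between lines. Abca2 (log2 -0.92 ± 0.11) and Abcb9 (-0.76 ± 0.19) were lower.

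Amino acid and ATF4 response genes had 5 higher and 2 lower members of 28 tested (median log2 0.36), and 6 and 2 with 17 libraries. Chac1, a glutathione-degrading enzyme induced by ATF4, was at 72.2, 70.9 and 74.3 CPM in hβ3 against 25.6, 25.995 and 25.002 CPM in Δβ3 (log2 1.505 ± 0.14, adjusted p = 1.03e-06), and asparagine synthetase, Asns, was higher by log2 0.79 ± 0.19. The mTORC1 inhibitor Ddit4 was lower by -1.47 ± 0.21 and Cebpb by -0.83 ± 0.21. NRF2 targets had 2 higher and 3 lower of 23 tested. Hmox1, haem oxygenase 1, was at 145, 141 and 147 CPM in hβ3 against 26.7, 38.02 and 30.2 CPM in Δβ3 (log2 2.19 ± 0.14, adjusted p = 2.31e-08), and Mgst1, a microsomal glutathione transferase, at 5.82, 5.27 and 4.82 CPM in hβ3 against 24.9, 20.3 and 19.9 CPM in Δβ3 (log2 -2.03 ± 0.24, adjusted p = 2.07e-05). Both were fully separate, in opposite directions.

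Glycolysis and hypoxia genes had 3 higher and 2 lower of 27 tested, and 2 and 1 with 17 libraries. Ndrg1 was higher (log2 1.28 ± 0.14) and Egln3, an oxygen sensor that marks HIF for decay, was lower (-1.28 ± 0.14). Vegfa, the endothelial growth factor, was called lower, and not without Δβ3 culture 1 (adjusted p = 0.0924). Lysosomal genes had 1 higher and 6 lower of 25 tested (median log2 -0.13), and 0 and 5 with 17 libraries. Ctsb, the cysteine protease cathepsin B, was at 1002, 1061 and 956 CPM in hβ3 against 1706, 2019 and 1869 CPM in Δβ3 (log2 -0.89 ± 0.17, adjusted p = 0.00192), and Ctsh was lower by log2 -1.44 ± 0.33. Sterol and fatty acid synthesis had 1 call of 32 tested, Pmvk (adjusted p = 0.0211), which was not called without Δβ3 culture 1 (0.113). Nuclear genes of oxidative phosphorylation had 0 of 29 called by edgeR or DESeq2, 1 of them at an unadjusted p under 0.05, at a median log2 of -0.21, and 1 higher and 6 lower of 30 with 16 libraries.

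The same lines in docetaxel give separate libraries in which the differences can be measured again. There 1223 genes were called (10.1%), 532 higher (4.38%) and 691 lower (5.69%). Of the 1594 genes called in DMSO, 1525 had the same sign in docetaxel, or 95.7%, against 68.7% of all tested genes. Of these, 766 were also called there, and 1, Apcdd1, was called with the opposite sign. The 761 genes higher in DMSO had a median log2 of 0.85 in DMSO and 0.55 in docetaxel, and the 833 lower ones -1.27 and -0.80. These genes were chosen by their DMSO calls, which alone makes smaller medians likely in docetaxel. The medians therefore do not show that the drug narrowed the differences. Leaving out 1 library moved the docetaxel count to 2656 without Δβ3 docetaxel culture 1, 2187 without Δβ3 docetaxel culture 3 and 1982 without Δβ3 DMSO culture 1. It was 604, 591 and 667 without hβ3 docetaxel cultures 1, 2 and 3. With 16 libraries 2460 genes were called in docetaxel (19.9%), 2744 of the 2880 called in DMSO kept their sign there (95.3%), 1769 were called again and 8 were called in the opposite direction. Among the 28 genes with the largest differences, 27 had the same sign in docetaxel and 25 were called, Wnt7a at log2 4.13 (adjusted p = 0.0225), Inhbb at -4.42 (1.63e-07) and Mmp3 at -3.42 (2.32e-06). Col12a1 did not keep its sign, at log2 -0.22.

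By list, 150 of the 153 called members had the same sign in docetaxel and 106 were called. All 9 interferon genes kept their sign and 8 were called, and all 7 bone genes were called. Of the 19 immediate-early and MAP kinase genes, 19 kept their sign and 11 were called, among them Fos (log2 -3.51, adjusted p = 2.5e-05) and Egr1 (-2.71, 0.000475). The 3 members that did not keep their sign were Apcdd1, Col12a1 and Nlrc5 (log2 -0.08, adjusted p = 0.779).

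**Figure D4:**
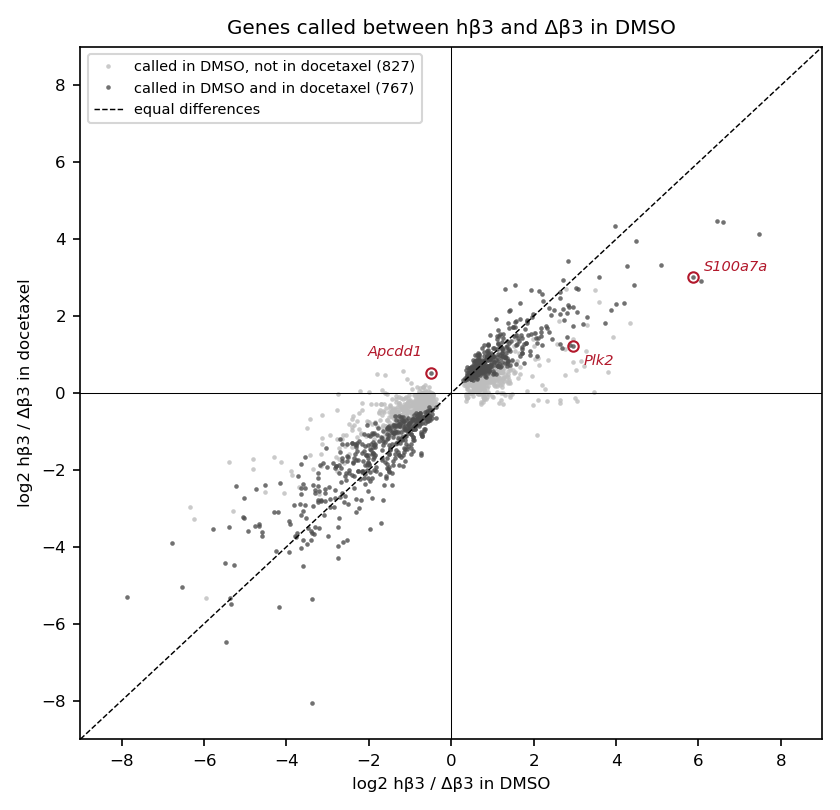
Each point is 1 of the 1594 genes called between hβ3 and Δβ3 in DMSO, with its log2 difference in DMSO on the horizontal axis and in docetaxel on the vertical axis. Of these, 1525 lie in the quadrants of equal sign, and Plk2, S100a7a and Apcdd1 are circled. The genes were chosen by their DMSO calls, so medians nearer to 0 in docetaxel do not show an effect of the drug.

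Whether a difference itself changed with the drug was tested as an interaction. It called 5 genes (0.0412%), 1 with a larger log2 of hβ3 over Δβ3 in docetaxel (0.00823%) and 4 with a smaller one (0.0329%), and 1047 genes had an unadjusted p under 0.05. DESeq2 called 37 (0.305%), and edgeR with 16 libraries 73 (0.591%). Leaving out any single library gave 1 to 4 calls, except 9 without Δβ3 docetaxel culture 2. Plk2 was at 135, 137 and 139 CPM in hβ3 and 58.7, 61.5 and 57.5 CPM in Δβ3 in docetaxel, so that its difference was log2 1.21 there against 2.95 in DMSO. The lines thus lay nearer to each other in docetaxel and still did not overlap. S100a7a was at 24.6, 29.5 and 25.5 against 1.81, 5.91 and 2.51 CPM in docetaxel, and it also differed less than in DMSO. Rgs2, a regulator of G protein signalling, did not pass in DMSO (16.4, 22.01 and 18.2 CPM in hβ3 against 18.1, 19.2 and 17.04 CPM in Δβ3, log2 0.06 ± 0.15, adjusted p = 0.838) and was lower in hβ3 in docetaxel, at 23.8, 19.5 and 24.2 against 49.8, 53.9 and 48.7 CPM. Apcdd1 changed order, with 189.9, 187 and 186 CPM in hβ3 and 130.4, 133 and 127 CPM in Δβ3 in docetaxel.

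**Figure D5:**
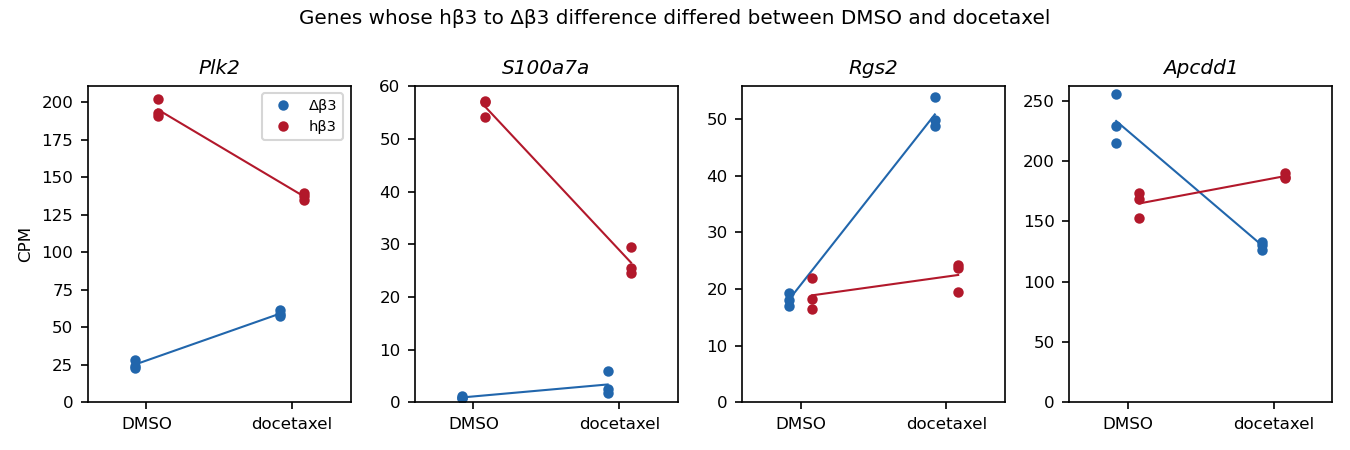
CPM of each culture (points) and group means (line ends) of Δβ3 (blue) and hβ3 (red) in DMSO and docetaxel for 4 of the 5 genes called in the interaction test. Plk2 and S100a7a differ less in docetaxel, Rgs2 overlaps in DMSO and is separate in docetaxel, and the lines of Apcdd1 cross.

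Against the empty vector line in DMSO, hβ3 differed in 1095 genes (9.02%), 593 higher (4.88%) and 502 lower (4.13%). Δβ3 differed from it in 5 (0.0412%), 4 higher (0.0329%) and 1 lower (0.00823%), with 1225 genes at an unadjusted p under 0.05. With 16 libraries Δβ3 differed from pMx in 41 genes (0.332%). The 5 genes were Itgb3 (log2 6.66), Egr1 (3.03, adjusted p = 0.00703), Fos (2.89, 0.00703), Ier2 (1.30, 0.0264) and Igsf11, an adhesion molecule of the immunoglobulin superfamily (-1.16, 0.00338). Egr1 was at log2 0.34 in hβ3 over pMx (adjusted p = 0.733), Fos at -0.33 (0.762) and Ier2 at 0.17 (0.754), and none of these passed. Igsf11 was at 29.4, 32.5 and 28.9 CPM in hβ3 against 6.51, 5.43 and 6.06 CPM in Δβ3 and at 12.2, 13.8 and 14.3 CPM in pMx, so that the empty vector line lay between the rescued lines.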

How the data were processed

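The authors deposited raw read counts per transcript model. Per the submitters' processing notes, reads were processed with FastQC, HISAT2 and featureCounts on mm10. With annotation, strand setting and the handling of shared reads not given in the sources used here, overlapping or antisense genes and near-identical copies cannot be told apart. The table also gives each model's length in bases, another deposited value, which no test used. Its 63759 models were summed to 32699 gene symbols, of which 13170 had several models. Symbols were matched to GENCODE M21 for positions (10331 of 12145 tested) and to RefSeq GRCm38.p6 for promoters (7963).

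Tests used edgeR 4.0.16 in R 4.3.3: filterByExpr, TMM factors, the 6 groups as coefficients and the robust quasi-likelihood F-test, two-sided, over all 18 libraries, with Benjamini-Hochberg adjustment over all tested genes and a threshold of 0.05. Library totals were 7972612 to 18961392 counts. A count of 3 corresponds to 0.186 to 0.296 CPM in the 6 libraries. The script was tested on simulated counts. Alternatives were fits with 17, 16, 6 or 5 libraries, other factors and filters, DESeq2 1.42.0, a replicate block, a fold threshold and each library left out. Fits of DESeq2, the block and the fold threshold with 16 libraries were chosen after seeing the data.

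The members and gene lists were chosen with earlier results of these data known. Named genes are the 14 largest rises and 14 largest falls among genes listed as protein coding in GENCODE M21 under the table's symbol and called with 18 and with 16 libraries, with a mean of at least 2 CPM and separate values, plus up to 4 members of each list with the smallest p and a short set of controls. Further list members and other genes were named after their values were seen. A few called genes are counted but not reported here by name. The replicates are separate cultures per the labels.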

Additional observations from a re-analysis of the deposited data

Results flagged for a closer look

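In 5 genes the difference between hβ3 and Δβ3 itself differed between DMSO and docetaxel in the interaction test (edgeR, adjusted over 12145 genes), and 4 of them are given here. Plk2, the polo-like kinase, changed by log2 -1.742, or -1.74 ± 0.15 with its standard error (adjusted p = 2.75e-05). Without Δβ3 culture 1 in DMSO it was -1.68 (adjusted p = 1.49e-05). The hβ3 cultures fell from 192, 202 and 191 CPM in DMSO to 135, 137 and 139 CPM in docetaxel, while Δβ3 went from 22.99, 28.01 and 24.4 to 58.7, 61.5 and 57.5 CPM. Apcdd1, the WNT antagonist, changed by log2 1.027 (adjusted p = 0.00897), and by 0.95 without that culture (0.00398).

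S100a7a changed by log2 -2.864 (adjusted p = 0.0492) and Rgs2 by -1.236 (adjusted p = 0.0492). Without Δβ3 culture 1 neither was called, at log2 -2.76 (adjusted p = 0.128) and -1.23 (0.0644). With 16 libraries both were called, at -2.12 (adjusted p = 0.00199) and -1.18 (0.00238). The values of these 4 genes in each culture are plotted in the report.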

How the results depend on the processing

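The count of 1594 genes called in DMSO was 2880 with 16 libraries, 830 with the 6 libraries alone, 2939 with a replicate block and 16 libraries, 2747 with DESeq2 and 16 libraries, and 233 or, with 16 libraries, 360 when tested against a 2-fold change. Leaving out single libraries gave 962 to 2857. The 1223 calls in docetaxel became 1982 with 17 libraries, 2460 with 16, 294 with the 6 docetaxel libraries of these lines, 2545 with the block and 16 libraries, 2341 with DESeq2 and 16 libraries, and 591 to 2656 with single libraries left out. The 5 interaction calls became 2 with 17 libraries, 73 with 16, 1 with the 12 libraries of these lines, 3 with RLE factors, without Rn45s, without muscle genes or with the block, 2 with the largest transcript model, 71 with the block and 16 libraries, 37 with DESeq2, 129 with DESeq2 and 16 libraries, 4 with no filter on low counts, and 1 to 9 with single libraries left out. The 153 called list members became 277 with 16 libraries, 237 with 5, 280 with the block and 16 libraries, 266 with DESeq2 and 16 libraries, and 119 to 260 with single libraries left out.

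Of 183 called genes followed by name, 124 kept their call in all 31 settings, 59 lost it in at least 1 and 0 reversed. Among these 59, the edgeR fit with 16 libraries lost only the calls of Tln2 and Twist1. Of 70 followed genes that were not called, 23 were called with 16 libraries. For samples sharing a replicate number, deviations from the group means of hβ3 and Δβ3 in DMSO correlated at 0.05, -0.07 and 0.16. Other pairs of groups gave values from -0.5315 (replicate 1, Δβ3 with pMx in docetaxel) to 0.4592 (replicate 3, Δβ3 in DMSO with docetaxel). Whether the numbers pair samples is therefore not settled, and the main fit did not pair them. With the replicate block 1433 genes were called in DMSO and 979 in docetaxel. The share of calls that were higher was 47.7%, 40.4% with the 6 libraries alone and at most 48.7%, and the median log2 of all genes was -0.0018, and -0.033 with DESeq2, -0.0327 without Rn45s and -0.032 with RLE factors. The biological coefficient of variation was 36.1% with 18 libraries and 13.2% with 16. A count of 3, 0.186 to 0.296 CPM in the 6 libraries, bounds what can be told from 0.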

Other observations

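Some genes outside the lists also differed, named after their values were seen. Among genes of the Notch pathway, the receptor Notch1 was at 6.096, 5.33 and 5.82 CPM in hβ3 against 68.9, 50.8 and 57.3 CPM in Δβ3 (log2 -3.36 ± 0.15, adjusted p = 2.41e-10) and Neurl1b, a ubiquitin ligase that acts on Notch ligands, at 19.95, 21.1 and 23.3 CPM in hβ3 against 306, 206 and 237 CPM in Δβ3 (log2 -3.54 ± 0.22, adjusted p = 1.64e-08). With the lower Jag1, a receptor, a ligand and a ligand regulator were lower in hβ3, with separate groups and the same sign in docetaxel (log2 -2.95, -2.46 and -1.85). The collagen receptor Mrc2, which takes up collagen for breakdown, was at 10.7, 12.1 and 10.3 CPM in hβ3 against 163, 129.5 and 127 CPM in Δβ3 (log2 -3.66 ± 0.20, adjusted p = 4.47e-09).

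Among rises, Sdpr, which encodes the caveolar protein cavin-2, was at 1630.5, 1648 and 1562 CPM in hβ3 against 215, 153 and 156 CPM in Δβ3 (log2 3.21 ± 0.37, adjusted p = 2.67e-05), and the tight junction gene Cldn1 at 17.9, 19.8 and 15.9 CPM in hβ3 against 1.28, 2.095 and 3.11 CPM in Δβ3 (log2 3.04 ± 0.33, adjusted p = 7.33e-06). Also higher were the neural adhesion molecule Ncam1 at 14.8, 19.7 and 16.7 CPM in hβ3 against 4.54, 3.802 and 2.94 CPM in Δβ3 (log2 2.18 ± 0.26, adjusted p = 2.51e-05), P-selectin or Selp at 16.002, 16.2 and 22.2 CPM in hβ3 against 1.78, 3.802 and 3.03 CPM in Δβ3 (log2 2.65 ± 0.27, adjusted p = 4.8e-06) and the lymphocyte receptor Tigit at 76.4, 61.6 and 114 CPM in hβ3 against 24.4, 15.8 and 13.5 CPM in Δβ3 (log2 2.23 ± 0.33, adjusted p = 0.0002). Surface molecules of this kind differed in both directions: Ncam2 (log2 -3.15), Spn (-3.18) and Flt3 (-1.91) were lower. In each of the 5 genes that were higher all hβ3 cultures were above all Δβ3 cultures.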
